A study of Mus musculus with 6 samples.

Results

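The genes of blood coagulation and fibrinolysis were examined in RNA-seq counts of whole mouse embryos at E10.5 (day of gestation). The 35 genes were chosen by name as coagulation factors, inhibitors and fibrinolysis genes, and all 35 were found among the 55401 Ensembl gene identifiers of the count table. They were split by where they are known to be made: 20 by endoderm and its liver derivatives, and 15 by vessels or by many cell types. These lists were drawn up with earlier results of these data known. WT embryos carried the unmodified *Igf2* locus. *Mir483*-5C (5C) embryos carried 5 additional *Mir483* copies, arranged in tandem and placed in their native setting within *Igf2*, an array passed on by chimeric males. Each genotype had 3 libraries, each made from a pool of 2 embryos described as male, so n = 3 pools per genotype. The WT embryos were described as littermates of the 5C embryos. Whole embryos were lysed without separation of tissues, so fewer cells of a type and less RNA per cell cannot be told apart.

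Library totals ranged from 6357343 (WT replicate 3) to 19151368 counts (WT replicate 1). The level corresponding to 3 counts, used as the floor of detection, was 0.157 CPM (read counts relative to the scaled library total) in the deepest library and 0.477 CPM in the shallowest, and it covers counting error only. *Mir483*, read here only from longer transcripts that contain the hairpin, was higher in each 5C library, with 0.576, 0.428 and 0.318 CPM in WT against 5.14, 4.34 and 2.56 CPM in 5C. Its log2 fold change (log2FC) of 3.05 (SE 0.36) had the smallest adjusted p over all genes, 0.169 (edgeR quasi-likelihood test, Benjamini-Hochberg adjustment). The description of the pools as male and the data parted: the summed level of 4 Y-linked genes (*Ddx3y*, *Eif2s3y*, *Kdm5d* and *Uty*) was 4.11 CPM in WT replicate 2 and 0.0852 CPM in 5C replicate 2, against 130 to 211 CPM in the other 4 libraries. The endoderm-made median and the members at an unadjusted p under 0.05 are also given without these 2 libraries. Ranges between libraries and shares of counts are given with them only.

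Coagulation is a chain of proteolytic steps. Tissue factor on cells outside the blood binds factor VII, the resulting complex activates factor X, and factor X with its cofactor, factor V, turns prothrombin into thrombin, which cleaves fibrinogen into fibrin. Antithrombin, the protein C system and tissue factor pathway inhibitor restrain these steps, and plasmin dissolves fibrin. Most circulating factors are secreted by hepatocytes in the adult. In the mid-gestation mouse embryo the liver has only begun to form, and visceral endoderm of the yolk sac secretes many of the same plasma proteins. Receptors and inhibitors on the vessel wall are made by endothelium and other cells.

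The endoderm-made genes varied between libraries of the same genotype far more than the vessel-made genes did. The summed level of the 20 endoderm-made genes was 398, 27.2 and 48.5 CPM in the WT libraries and 26.2, 24.8 and 105 CPM in the 5C libraries, a 16-fold range. WT replicate 1 was the highest, 5C replicate 3 came second, and the other 4 libraries of both genotypes lay between 24.8 and 48.5 CPM. For the 15 vessel-made or widely made genes the sum was 451, 406 and 444 CPM in WT against 417, 425 and 472 CPM in 5C, a 1.16-fold range. WT replicate 1 held the highest level for 18 of the 20 endoderm-made genes, and for 14 of the 20 the top libraries were WT replicate 1 and 5C replicate 3. For the vessel-made genes the highest library was WT replicate 1 in 6 and 5C replicate 3 in 4. It was WT replicate 2 in 2, WT replicate 3 in 2 and 5C replicate 2 in 1. For 5 of these 15 genes the top libraries were WT replicate 1 and 5C replicate 3.

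To ask whether extra *Mir483* alters these transcripts, 5C was compared with WT over all 16784 genes with enough counts, which included 27 of the 35 members (12 endoderm-made and all 15 vessel-made). No member passed the adjusted p of 0.05, nor did any other gene (0% of all genes tested). The smallest adjusted p of a member was 0.781 (edgeR quasi-likelihood test). Of all genes, 1011 had an unadjusted p under 0.05. DESeq2 called 11 genes and 0 members, and 0 members had an unadjusted p under 0.05 by that tool, against 4.28% of all genes. At an unadjusted p under 0.05, 1 member was lower in 5C, where 3.47% of all genes tested were lower by this rule. By the same rule 0 members were higher, against 2.55% of all genes. Among the 27 tested members, 0 had all 5C libraries below all WT libraries and 0 had all of them above, against 5.08% and 6.3% of all genes tested. All 12 tested endoderm-made genes had a negative log2FC, with a median of -1.62. Over all 20 of them, in a fit without a count filter, 18 were negative and the median was -1.50. That fit called 11 of the 20, all lower in 5C and with *Fga* at the smallest adjusted p (9.9e-62, edgeR), and 0.963% of its 33139 genes. *Fga* had a log2FC of -2.19 in both fits, with an adjusted p of 0.781 (edgeR) in the fit with the count filter. In the filtered fit the standard errors of the 12 tested endoderm-made genes were large, from 0.37 to 1.32. The sign turned on WT replicate 1. Without that library 0 of the 11 endoderm-made genes then tested were negative, and their median log2FC was 0.37. The vessel-made genes had 8 negative and 7 positive values with a median of -0.0079, close to the -0.0024 of all genes tested.

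**Figure D1:**
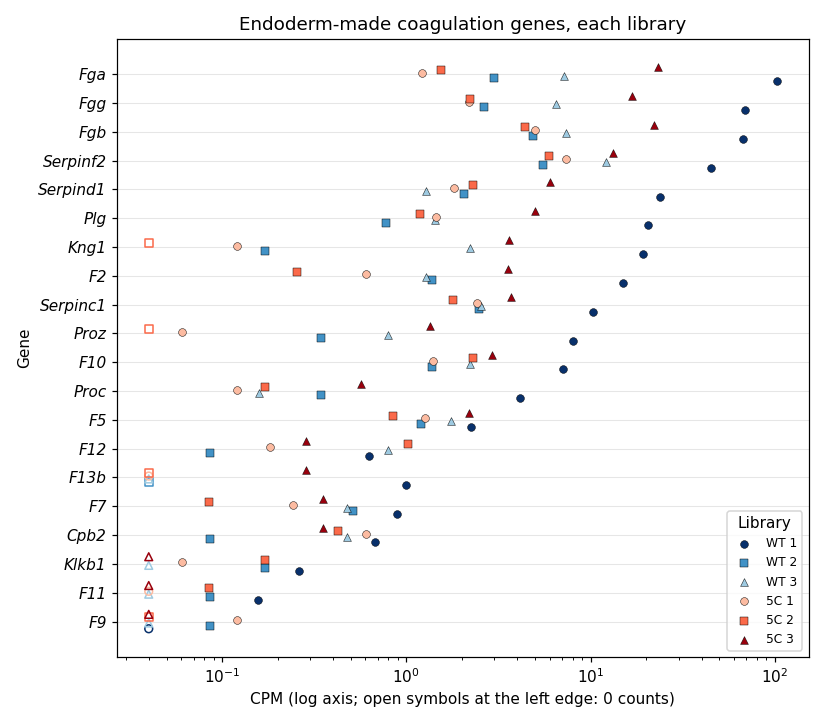
Levels of the 20 endoderm-made genes in each of the 6 libraries, in CPM on a log axis, with 1 point per library and open symbols at the left edge for 0 counts. WT replicate 1 is the rightmost point for 18 of the 20 genes, and 5C replicate 3 follows it for most of the abundant ones.

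The 3 fibrinogen chains had the highest CPM of the endoderm-made genes in WT replicate 1 (per kilobase of exon, *Serpinf2* at 19.3 CPM lay above *Fgb* at 17.6 CPM). Their genes lie in a cluster of 42.1 kb on chromosome 3 of GRCm38: *Fgg* (γ chain, plus strand, chr3:83007724-83015049), *Fga* (α chain, plus strand, chr3:83026076-83033627) and *Fgb* (β chain, minus strand, chr3:83040141-83049863). *Fga* measured 103, 3.00 and 7.16 CPM in WT against 1.21, 1.53 and 23.2 CPM in 5C. *Fgb* measured 66.9, 4.88 and 7.32 CPM in WT against 5.02, 4.43 and 22.0 CPM in 5C. *Fgg* measured 69.1, 2.66 and 6.52 CPM in WT against 2.18, 2.21 and 16.7 CPM in 5C. All 3 chains were highest in WT replicate 1 and next in 5C replicate 3, and the genotypes overlapped. *Fga* ranged furthest, with an 85.0-fold difference between the highest and the lowest library, against 31.7-fold for *Fgg* and 15.1-fold for *Fgb*. The log2FC was -2.19 (SE 1.24) for *Fga*, -1.40 (SE 0.90) for *Fgb* and -1.96 (SE 1.08) for *Fgg*, each with an adjusted p of 0.781 (edgeR). Without WT replicate 1 all 3 turned positive, at 0.87, 0.83 and 0.72.

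The balance between the chains differed between libraries. *Fgb* gave 28.0% of the 4564 fibrinogen counts in WT replicate 1 (exact 95% binomial interval 26.7 to 29.4%) and 35.6% of 871 counts in 5C replicate 3 (32.4 to 38.9%). It gave 46.3% of 123 counts in WT replicate 2 (37.3 to 55.6%) and 34.8% of 132 counts in WT replicate 3 (26.8 to 43.6%). It gave 59.7% of 139 counts in 5C replicate 1 (51.1 to 67.9%) and 54.2% of 96 counts in 5C replicate 2 (43.7 to 64.4%). The intervals of 5C replicates 1 and 2 lay above those of the libraries rich in fibrinogen, WT replicate 1 and 5C replicate 3. The interval of WT replicate 2 lay above that of WT replicate 1 but met that of 5C replicate 3, and WT replicate 3 met both. *Fga* went the other way, with 43.1% in WT replicate 1, 37.4% in 5C replicate 3 and 14.4% in 5C replicate 1 (9.02 to 21.3%). These intervals cover counting error only.

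The promoters are shown because the 3 clustered genes were high and low in the same libraries while *Fgb* ranged less than *Fga*. The windows come from RefSeq (GRCm38.p6) and were given for 17 of the 20 endoderm-made and 11 of the 15 vessel-made genes. Each holds the 250 bases before a start annotated by RefSeq, written in the direction of the gene. Capitals mark AGNNCAAAG or its reverse complement CTTTGNNCT, the core of the direct-repeat motif bound by HNF4 and related nuclear receptors, which act in liver and visceral endoderm. *Fgg* (plus strand, chr3:83007474-83007723) holds 1 match, while the windows of *Fgb* (minus strand, chr3:83049864-83050113) and *Fga* (plus strand, chr3:83025903-83026152, not printed) hold none:
Fgg: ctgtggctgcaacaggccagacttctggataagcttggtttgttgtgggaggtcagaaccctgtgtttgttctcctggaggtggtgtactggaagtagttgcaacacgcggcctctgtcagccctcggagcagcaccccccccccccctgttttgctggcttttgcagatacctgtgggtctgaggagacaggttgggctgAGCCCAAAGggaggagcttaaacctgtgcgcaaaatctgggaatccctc
Fgb: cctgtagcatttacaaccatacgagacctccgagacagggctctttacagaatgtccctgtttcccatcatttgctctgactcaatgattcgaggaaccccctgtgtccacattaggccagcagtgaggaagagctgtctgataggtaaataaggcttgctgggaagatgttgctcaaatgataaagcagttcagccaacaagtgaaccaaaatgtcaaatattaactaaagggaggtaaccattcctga
For the other genes with a match, the 30 bases around it are printed: *F7* (plus strand, chr8:13025992-13026021), *F9* (plus strand, chrX:59999335-59999364), *F11* (minus strand, chr8:45262116-45262145), *Proz* (plus strand, chr8:13060659-13060688), *Serpinf2* (minus strand, chr11:75439562-75439591) and *Tfpi2* (minus strand, chr6:3988990-3989019), the last being the 1 vessel-made gene with a match. The *Serpinf2* stretch lies before the RefSeq start but is the first 30 bases of the gene in GENCODE M21:
F7: ctcccccctgacCTTTGCCCTcccggcagc
F9: ccaactggaaatAGCCCAAAGatacaccga
F11: gtttcagtacagAGACCAAAGggacattct
Proz: ttcatcatggaaCTTTGCACTgtaaaattc
Serpinf2: gggggttggctgAGAGCAAAGgtcctgtgg
Tfpi2: gtaaagagccacCTTTGTTCTcctttgtgt
The core, chosen after other motifs had been searched, was found in 6 of 17 endoderm-made genes with a window and in 5.65% of all 32851 windows of this length. Another form of the HNF4 motif, CAAAGTCCA on either strand, was in 0 of the members' windows and in 0.384% of all windows. A match describes these letters and was not tested as a site.

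*F13b*, on the plus strand at chr1:139501702-139523752, encodes the carrier subunit of the enzyme that crosslinks fibrin. It was read 19 times in WT replicate 1 (0.994 CPM) and 4 times in 5C replicate 3 (0.284 CPM), and had 0 counts in the other 4 libraries, where 3 counts would be 0.181 to 0.477 CPM. It did not enter the test.

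Prothrombin, *F2* (minus strand, chr2:91625320-91636414), measured 15.1, 1.37 and 1.27 CPM in WT against 0.605, 0.256 and 3.55 CPM in 5C. WT replicate 1 and 5C replicate 3 were again the highest libraries, and the 5C libraries overlapped the WT libraries through 5C replicate 3. Its log2FC was -2.11 (SE 0.99, adjusted p 0.781, edgeR). *F10*, the enzyme that activates prothrombin, measured 7.12, 1.37 and 2.23 CPM in WT against 1.39, 2.30 and 2.91 CPM in 5C, with a log2FC of -0.82 (SE 0.54). *F5*, the cofactor of factor X, measured 2.25, 1.20 and 1.75 CPM in WT against 1.27, 0.852 and 2.20 CPM in 5C. It was the steadiest endoderm-made gene tested, with a 2.64-fold range and a log2FC of -0.29 (SE 0.37).

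*F7*, *F10* and *Proz* lie next to each other on the plus strand of chromosome 8, between 13026034 and 13076026. They encode factor VII, factor X and protein Z, the last a cofactor for inhibition of factor X. Their patterns differed. *Proz* rested on 153, 4 and 5 counts in WT against 1, 0 and 19 counts in 5C, or 8.01, 0.343 and 0.796 CPM against 0.0605, 0 and 1.35 CPM. It was the 1 member with an unadjusted p under 0.05 (0.0367), with a log2FC of -2.86 (SE 1.18) and an adjusted p of 0.781 (edgeR). 5C replicate 3 lay above WT replicates 2 and 3, so the genotypes overlapped. *F7* rested on 17, 6 and 3 counts in WT against 4, 1 and 5 counts in 5C. Its levels of 0.889, 0.514 and 0.477 CPM in WT lay above the 0.242, 0.0852 and 0.355 CPM of 5C without overlap, but they were too low for the test, and 3 counts in WT replicate 3 are the floor itself.

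The remaining factors of the early and contact steps were barely read. *F9* had 0, 1 and 0 counts in WT against 2, 0 and 0 in 5C. *F11* had 3, 1 and 0 counts in WT against 0, 1 and 0 in 5C. *Klkb1*, prekallikrein, had at most 5 counts in a library, and 43.2% of its exon bases lie under another gene on the same strand, so its counts are uncertain. All 3 were at or near the floor in the 6 libraries, and no difference was detectable at this depth. *F12*, which starts the contact pathway, had 0.628, 0.0857 and 0.796 CPM in WT against 0.181, 1.02 and 0.284 CPM in 5C, from 1 to 12 counts. It was 1 of the 2 endoderm-made genes, with *F9*, whose highest library was not WT replicate 1. *Kng1*, the kininogen that carries prekallikrein, stood apart from these with 366, 2 and 14 counts in WT against 2, 0 and 51 counts in 5C, or 19.1, 0.171 and 2.23 CPM against 0.121, 0 and 3.62 CPM. Only WT replicate 1, WT replicate 3 and 5C replicate 3 passed 3 counts. Its log2FC was -2.62 (SE 1.32, adjusted p 0.781, edgeR). How reads shared with its close copy *Kng2*, which is counted separately, were treated was not examined.

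Among the endoderm-made inhibitors, *Serpinf2* (α2-antiplasmin, the inhibitor of plasmin) was the most abundant, with 44.9, 5.48 and 12.1 CPM in WT against 7.38, 5.96 and 13.2 CPM in 5C. *Serpind1* (heparin cofactor II, an inhibitor of thrombin) measured 23.9, 2.06 and 1.27 CPM in WT against 1.81, 2.30 and 6.04 CPM in 5C. *Serpinc1* (antithrombin) measured 10.3, 2.48 and 2.55 CPM in WT against 2.42, 1.79 and 3.69 CPM in 5C. WT replicate 1 exceeded the mean of the other WT libraries 14.4-fold for *Serpind1*, 5.11-fold for *Serpinf2* and 4.08-fold for *Serpinc1*, and outside that library *Serpinc1* stayed between 1.79 and 3.69 CPM. Exons of another gene on the opposite strand cover 34.4% of *Serpinc1*, and the strand setting of the counts is not stated, so its counts are uncertain. The log2FC was -1.29 (SE 0.63), -1.54 (SE 0.89) and -1.04 (SE 0.52) for *Serpinf2*, *Serpind1* and *Serpinc1*. *Proc*, protein C, had 79, 4 and 1 counts in WT against 2, 2 and 8 counts in 5C and was not tested.

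Plasminogen, *Plg* (plus strand, chr17:12378608-12419385), is the precursor of plasmin, and 11.3% of its exon bases lie under another gene on the opposite strand. It measured 20.6, 0.771 and 1.43 CPM in WT against 1.45, 1.19 and 4.97 CPM in 5C, with a log2FC of -1.70 (SE 0.98, adjusted p 0.781, edgeR). WT replicate 1 exceeded the mean of the other WT libraries 18.7-fold, second to the 20.2-fold of *Fga*. *Cpb2*, a carboxypeptidase that protects fibrin from plasmin, had between 1 and 13 counts per library, from 0.0857 to 0.680 CPM, and was not tested.

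The levels of other cell types were read from marker lists beside these genes. The summed level of 10 yolk sac and visceral endoderm markers was 6515, 204 and 469 CPM in WT against 142, 142 and 1257 CPM in 5C, a 46.0-fold range. For 9 of 10 of these markers the top libraries were WT replicate 1 and 5C replicate 3. Of these markers 9 had 3 counts or more in at least 1 library, and *Apoc2* was at 0 in 5 of the 6 libraries. Hepatoblast markers, also 10, summed to 79.6, 25.5 and 36.6 CPM in WT against 29.9, 26.6 and 34.6 CPM in 5C. All 10 had 3 counts or more in some library. Their highest library was WT replicate 1 for 7 of the 10 and WT replicate 3 for the other 3. For 3 of the 10 the top libraries were WT replicate 1 and 5C replicate 3. *Hnf4a*, a regulator of both liver and visceral endoderm, measured 35.2, 2.31 and 4.46 CPM in WT against 2.06, 1.96 and 7.03 CPM in 5C. *Alb*, the albumin gene, measured 10.46, 3.34 and 7.96 CPM in WT against 5.44, 5.54 and 5.11 CPM in 5C, also highest in WT replicate 1. These genes were chosen from the list after their values were seen. The endoderm-made sum was 6.10, 13.3 and 10.3% of the yolk sac marker sum in WT and 18.5, 17.5 and 8.37% in 5C. It was thus largest relative to these markers where the markers were lowest. The part of yolk sac tissue in the difference between libraries was not tested.

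**Figure D2:**
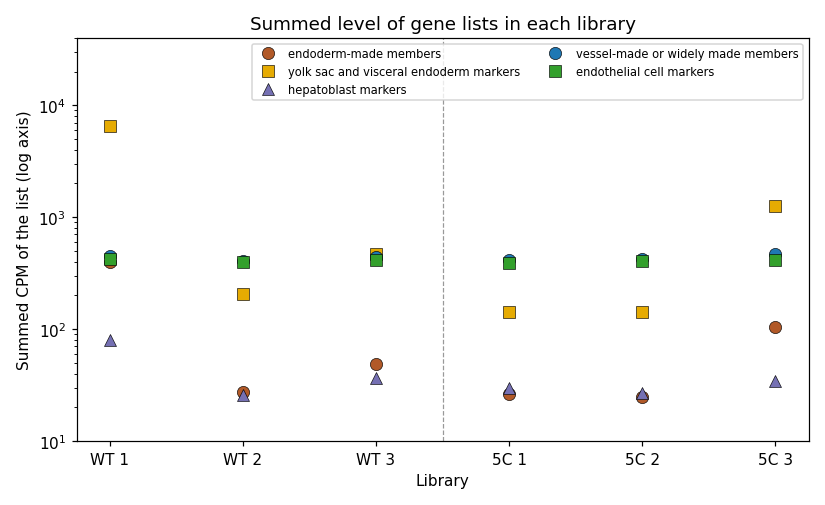
Summed level of 5 gene lists in each library, in CPM on a log axis. The endoderm-made genes (24.8 to 398 CPM) and the yolk sac markers (142 to 6515 CPM) peak in WT replicate 1 and then in 5C replicate 3, while the vessel-made genes (406 to 472 CPM) and the endothelial markers (390 to 426 CPM) are nearly level. The hepatoblast markers (25.5 to 79.6 CPM) also peak in WT replicate 1, with WT replicate 3 next.

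The vessel-made and widely made genes were read above the floor in all 6 libraries. The median range between the highest and the lowest library was 1.37-fold over these 15 genes (1.15-fold for *Serpine2* to 3.71-fold for *Tfpi2*). It was 16.9-fold (2.64-fold to 85.0-fold) over the 10 endoderm-made genes with 3 counts or more in every library. The vessel-made sum lay close to that of 10 endothelial markers. It was 106, 102 and 107% of the marker sum in WT and 107, 106 and 115% in 5C. How near the sums lie depends on the genes listed, and *F2r* alone gave 129 to 162 CPM of the vessel-made sum. All 10 endothelial markers were read in every library, and their sum stayed between 390 and 426 CPM.

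**Figure D3:**
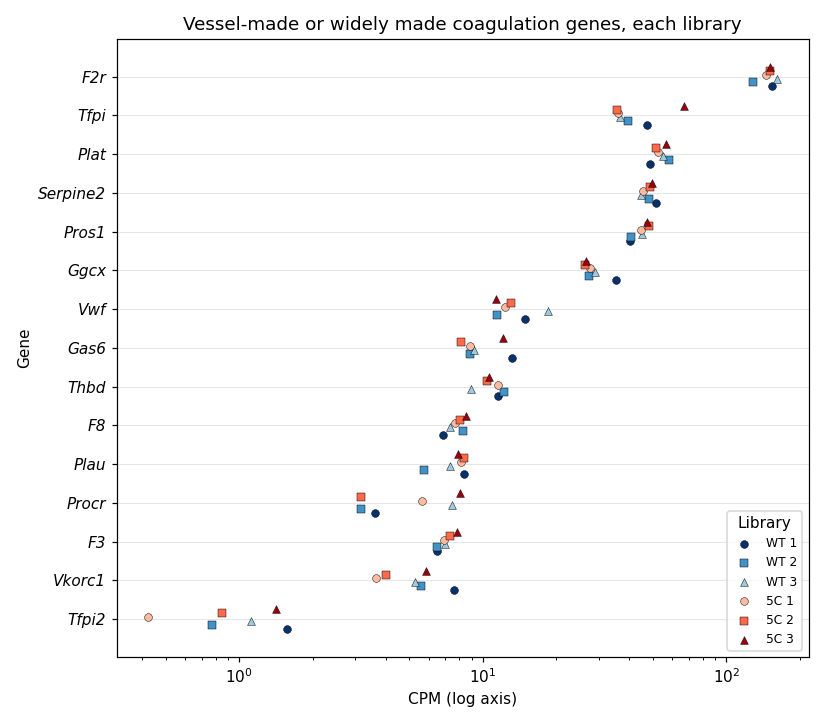
Levels of the 15 vessel-made or widely made genes in each of the 6 libraries, in CPM on a log axis, with 1 point per library. The points of both genotypes overlap for every gene; *Tfpi* in 5C replicate 3 (66.9 CPM) stands to the right of the other 5 libraries, and *Tfpi2* is spread most widely.

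The receptors are described first. *F2r*, the main thrombin receptor of many cells, had the highest level per length of all 35 genes, 44.6 CPM per kilobase of exon on average over the 6 libraries. It measured 154, 129 and 162 CPM in WT against 145, 151 and 151 CPM in 5C, with a log2FC of 0.0088 (SE 0.085; 95% interval -0.16 to 0.18). The 5C libraries lay inside the WT range. Per length it was followed by *Pros1* at 10.9, *Ggcx* at 8.83, *Plat* at 8.60 and *Tfpi* at 7.99 CPM per kilobase, and then by *Fgg* at 7.91 CPM per kilobase. The place of *Fgg* rested on WT replicate 1, with 32.998 CPM per kilobase against 1.04 to 7.97 in the other 5 libraries. Over the WT libraries alone *Fga* and *Fgg* (both 12.5 CPM per kilobase) came before *Pros1* (10.3), while in 5C *Fgg* averaged 3.36 CPM per kilobase. The lowest member was *F9*, at 0.0126 CPM per kilobase. *Procr*, the endothelial receptor of protein C, measured 3.61, 3.17 and 7.48 CPM in WT against 5.62, 3.15 and 8.03 CPM in 5C. It was high in WT replicate 3, 5C replicate 1 and 5C replicate 3 and low in the other 3 libraries, in both genotypes alike. The sum of 2 decidual stroma markers was also high in those 3 libraries, at 43.3, 31.7 and 28.3 CPM against 9.37, 5.05 and 8.94 CPM in the others. Nearly all of that sum was *Prl8a2*, while *Prl3c1* was at 0 in 5 of the 6 libraries, and the part of decidua in the level of *Procr* was not tested. *Thbd*, thrombomodulin, which turns thrombin toward protein C, measured 11.5, 12.3 and 8.91 CPM in WT against 11.5, 10.4 and 10.7 CPM in 5C (log2FC -0.018, SE 0.14).

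The initiator and its inhibitors were next. *F3*, tissue factor, was steady at 6.49, 6.51 and 7.0 CPM in WT against 6.95, 7.33 and 7.81 CPM in 5C, with a log2FC of 0.15 (SE 0.14; 95% interval -0.13 to 0.43). *Tfpi*, which blocks the complex of tissue factor and factor VII, measured 47.1, 39.6 and 36.8 CPM in WT against 36.1, 35.5 and 66.9 CPM in 5C. Only 5C replicate 3 stood above the WT range, with WT replicate 1 next. Without 5C replicate 3 the log2FC of 0.16 (SE 0.23) became -0.21. The sum of 10 trophoblast markers was also highest there, at 19.4 CPM against 4.17 to 12.7 CPM in the other 5 libraries, with 9 of 10 markers at 3 counts or more in some library and *Ctsq* at 0 in 4 libraries; their part in the level of *Tfpi* was not tested. *Tfpi2*, a related inhibitor, had 7 to 30 counts per library, at 1.57, 0.771 and 1.11 CPM in WT against 0.423, 0.852 and 1.42 CPM in 5C (log2FC -0.44, SE 0.45). Like the endoderm-made genes, it was highest in WT replicate 1 and next in 5C replicate 3.

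*F8* and *Vwf*, the cofactor of factor IX and the carrier protein that protects it, are made by endothelium. *F8* measured 6.85, 8.31 and 7.32 CPM in WT against 7.68, 8.09 and 8.52 CPM in 5C (log2FC 0.11, SE 0.15). *Vwf* measured 14.9, 11.5 and 18.5 CPM in WT against 12.4, 13.1 and 11.3 CPM in 5C (log2FC -0.27, SE 0.17). The 3 WT libraries of *Vwf* enclosed 2 of the 3 5C libraries, and 5C replicate 3 lay just below WT replicate 2.

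The vitamin K cycle gives several factors the carboxyl groups that bind calcium. *Ggcx*, the carboxylase itself, measured 35.2, 27.2 and 28.96 CPM in WT against 27.6, 26.4 and 26.4 CPM in 5C (log2FC -0.19, SE 0.11; 95% interval -0.41 to 0.025). *Vkorc1*, which recycles vitamin K, measured 7.59, 5.57 and 5.25 CPM in WT against 3.63, 4.0 and 5.82 CPM in 5C. Its log2FC of -0.48 (SE 0.23) was the lowest of the vessel-made or widely made genes, with an adjusted p of 0.781 (edgeR; 0.0666 unadjusted). 5C replicate 3 lay inside the WT range and the other 5C libraries lay below it. Another gene on the same strand covers 47.7% of its exon bases, so its counts are uncertain. Of the widely made proteins that need this cycle, *Pros1* (protein S, the cofactor of protein C) measured 40.2, 40.8 and 45.0 CPM in WT against 44.8, 48.3 and 47.4 CPM in 5C. Its log2FC was 0.16 (SE 0.080), with an unadjusted p of 0.0711. *Gas6*, a ligand of receptor kinases of the Axl family, measured 13.2, 8.82 and 9.23 CPM in WT against 8.83, 8.18 and 12.1 CPM in 5C (log2FC -0.12, SE 0.20), again highest in WT replicate 1 and next in 5C replicate 3.

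The plasminogen activators and their inhibitor were among the steadiest members. *Plat*, tissue plasminogen activator, measured 48.8, 58.1 and 54.7 CPM in WT against 52.2, 51.6 and 56.5 CPM in 5C, with a log2FC of -0.0079 (SE 0.086; 95% interval -0.18 to 0.16). *Plau*, urokinase, measured 8.37, 5.74 and 7.32 CPM in WT against 8.16, 8.35 and 7.88 CPM in 5C (log2FC 0.18, SE 0.17). *Serpine2*, which inhibits both activators and thrombin, measured 51.5, 48.1 and 44.7 CPM in WT against 45.5, 48.7 and 49.6 CPM in 5C (log2FC -0.011, SE 0.081; 95% interval -0.17 to 0.15). These activators were thus read at like levels in every library, while the level of their substrate, *Plg*, ranged 26.7-fold.

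How far each comparison rested on single libraries was followed by refitting. Without WT replicate 1 the median log2FC of the endoderm-made genes was 0.37, and no member (0 of 26) had an unadjusted p under 0.05, against 4.63% of all genes. Without 5C replicate 3 it was -2.54, and 7 members, all lower in 5C, passed that level: *F2*, *Fga*, *Fgb*, *Fgg*, *Serpinf2*, *Kng1* and *Vkorc1*. Of all genes in that fit, 2.88% were lower at this level. Without both of these libraries, a comparison chosen after the data were seen, 7 of the 10 endoderm-made genes still tested were negative, with a median of -0.31. *F2*, *Fga*, *Fgg* and *Vkorc1* then had an unadjusted p under 0.05 and were lower in 5C, as were 2.69% of all genes, and the smallest adjusted p of a member was 0.489 (edgeR). Without the 2 libraries low in Y-linked transcripts the median was -1.86, with 12 of 12 negative and *Proz*, *Serpinf2* and *Vwf* lower at an unadjusted p under 0.05, against 3.98% of all genes. Without WT replicate 2 alone 13 members were lower at that level, and the share of all genes rose as well, to 7.03%. The vessel-made median stayed between -0.052 and 0.042 in these fits.

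**Figure D4:**
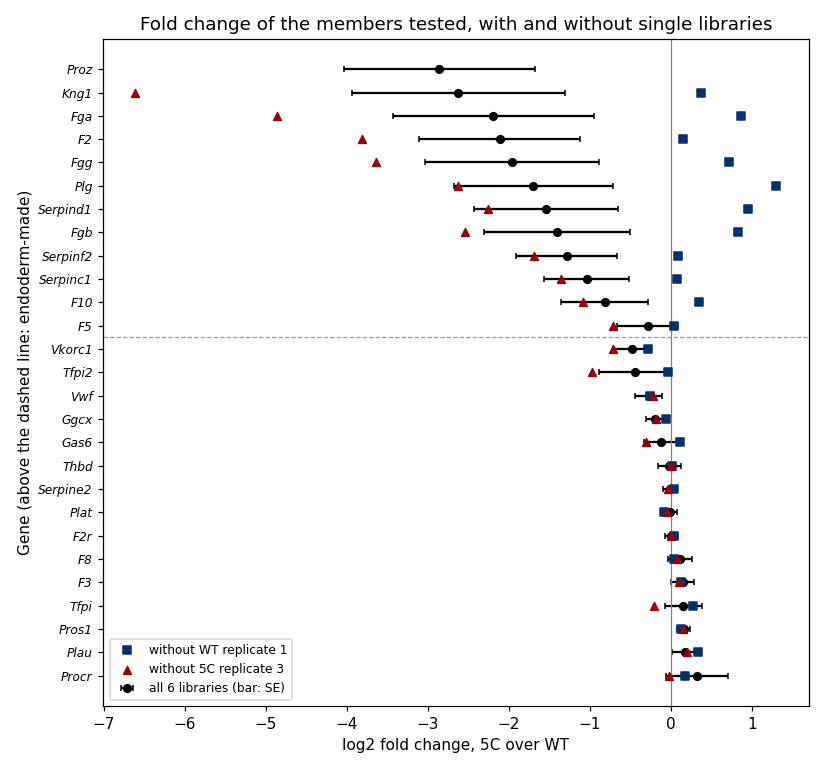
Log2 fold change of 5C over WT for the 27 members tested, from all 6 libraries (black points with bars of 1 standard error), without WT replicate 1 (blue squares) and without 5C replicate 3 (red triangles). Above the dashed line, the endoderm-made genes run from -2.86 to -0.29 with all libraries and turn positive without WT replicate 1, except *Proz*, which was then no longer tested; below the line all values with all libraries lie between -0.48 and 0.32.

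Other genes of the pathway were read from a list of 39, of which 27 were tested, 12 lower and 15 higher, with a median log2FC of 0.015 and 0 called (edgeR). The smallest p-values belonged to *F13a1*, *Pf4* and *Stab2*. *F13a1*, the catalytic subunit of the fibrin crosslinking enzyme, which macrophages and megakaryocytes make, measured 9.94, 7.80 and 7.16 CPM in WT against 9.55, 12.9 and 12.2 CPM in 5C (log2FC 0.45, SE 0.17, unadjusted p 0.0275, adjusted p 0.781, edgeR). It differed in pattern from its carrier subunit *F13b*, which was read in WT replicate 1 and 5C replicate 3 alone. *Pf4*, a platelet chemokine, measured 8.48, 6.34 and 9.07 CPM in WT against 10.04, 10.4 and 10.7 CPM in 5C without overlap (log2FC 0.39, SE 0.16, unadjusted p 0.0350, adjusted p 0.781, edgeR). *Stab2*, a scavenger receptor of sinusoidal endothelium, measured 12.2, 1.54 and 6.52 CPM in WT against 1.87, 2.04 and 5.19 CPM in 5C (log2FC -1.20, SE 0.62). Beside *F13a1* and *Pf4*, the summed level of 10 megakaryocyte and platelet markers, which include *Pf4*, was 28.5, 20.99 and 34.1 CPM in WT against 34.1, 31.9 and 33.6 CPM in 5C. All 10 reached 3 counts in some library, and *Gp1bb* was at 0 in 1 WT library. Macrophage markers, 8 genes all read in every library, summed to 55.0, 38.2 and 39.9 CPM in WT against 43.3, 54.6 and 49.4 CPM in 5C. The part of these cells was not tested.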

How the data were processed

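Poly(A)-selected, strand-specific libraries were sequenced by the authors as single-end reads and aligned to GRCm38 (Ensembl annotation) by STAR, and the authors deposited raw read counts per gene, without normalization. The strand setting is not given in the sources used here. Groups were taken from the sample titles. The members and lists were chosen with earlier results of these data known. The genes named are all 35 members, *Mir483*, and the 3 other pathway genes with the smallest p; *Apoc2*, *Prl3c1*, *Ctsq* and *Gp1bb* are named as markers at 0 (other single markers are not reported here), and *Hnf4a*, *Alb* and *Prl8a2* were chosen after their values were seen. Positions and exon lengths came from GENCODE M21. The genotypes were compared with the quasi-likelihood test of edgeR 4.0.16 (R 4.3.3; filterByExpr on genotype, TMM scaling, two-sided p-values, Benjamini-Hochberg adjustment over all genes tested), with the called genes also over 1.5-fold. Standard errors of log2FC were derived from the F statistic, and 95% intervals were taken as normal. CPM used TMM-scaled totals. Without labels for separate litters, p-values measure the spread between pools. No libraries were duplicates (chi-square per gene at least 5.76). Alternatives were DESeq2 1.42.0, other scalings and count filters, GC-content offsets, the replicate number as a block and libraries left out.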

Additional observations from a re-analysis of the deposited data

How the results depend on the processing

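Depth limited *F7*, *F9*, *F11*, *F12*, *F13b*, *Proc*, *Klkb1* and *Cpb2*, which stayed below the count filter. Relative log expression scaling, the replicate block alone and the GC-content offsets alone changed no count and no sign of a median. Called genes numbered 319 without a count filter, 11 of them members, and 11 with DESeq2, against 0. Members at an unadjusted p under 0.05 numbered 2 with library size alone, 15 without a count filter, 0 with at least 10 counts in every sample, 0 with DESeq2 and 0 with block and offsets together, against 1. Without a count filter 10 tested members passed the adjusted p of 0.05, each in its former direction, as did *Proc*. The causes were not tested.

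Same-numbered libraries correlated at -0.174, 0.202 and -0.166 in their deviations from the genotype means. Libraries of different numbers correlated at -0.199 to 0.307. No steady pairing by number was seen, but 3 libraries per genotype are too few to exclude it. With the replicate block 0 genes were called, 1 member had an unadjusted p under 0.05, and the medians were -0.94 (endoderm-made) and -0.0015 (vessel-made).

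The vessel-made median turned positive with library size alone (0.0083) and without a count filter (0.0057). *Plat* (0.0083 and 0.0057) and *Serpine2* (0.0053 and 0.0020) turned positive with the same settings. *Thbd* turned positive with offsets (0.018) and with block and offsets (0.035), where *F2r* turned negative (-0.0083 and -0.0027).

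The fits without libraries were those without each single library, without both replicates 2, and, chosen after seeing the data, without WT replicate 1 and 5C replicate 3. Over these 8 fits called genes numbered 0 to 2 (the 2 without WT replicate 1 and 5C replicate 3) and members at an unadjusted p under 0.05 numbered 0 (without WT replicate 1) to 13 (without WT replicate 2), with 3 and 4 in the fits without a pair. The endoderm-made median went from -2.54 to 0.37 and the vessel-made median from -0.052 to 0.042. For the endoderm-made genes the highest value was always without WT replicate 1, with log2FC from -3.81 to 0.16 for *F2*, from -0.71 to 0.037 for *F5*, from -1.24 to 0.34 for *F10*, from -4.86 to 0.87 for *Fga*, from -2.54 to 0.83 for *Fgb*, from -3.64 to 0.72 for *Fgg*, from -1.39 to 0.080 for *Serpinc1*, from -2.26 to 0.95 for *Serpind1*, from -1.75 to 0.086 for *Serpinf2*, from -2.62 to 1.30 for *Plg* and from -6.61 to 0.37 for *Kng1*. The exception was *Proz*, negative from -3.38 to -2.24 in the 5 fits that tested it, none of them without WT replicate 1. Among vessel-made genes, log2FC went from -0.13 to 0.098 for *Thbd*, from -0.21 to 0.31 for *Tfpi*, from -0.13 to 0.72 for *Procr*, from -0.12 to 0.077 for *Plat*, from -0.064 to 0.043 for *Serpine2*, from -0.31 to 0.11 for *Gas6*, from -0.092 to 0.064 for *F2r* and from -0.0038 to 0.20 for *F8*, and the other 7 kept their sign.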

Other observations

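The partner of protein Z, *Serpina10*, the inhibitor that needs it to block factor X, had 7.74, 0.428 and 0.318 CPM in WT against 0.605, 0.256 and 1.49 CPM in 5C, and was too low for the test. *Habp2*, a plasma protease, measured 9.52, 1.11 and 1.91 CPM in WT against 1.33, 0.937 and 3.05 CPM in 5C. *F2rl1*, a receptor cleaved by the complex of tissue factor and factor VII, measured 4.87, 1.03 and 0.796 CPM in WT against 0.544, 0.852 and 1.92 CPM in 5C. These 3 genes, all chosen after their values were seen, were highest in WT replicate 1 and second in 5C replicate 3. In contrast *Lman1* and *Mcfd2*, which carry factors V and VIII through the secretory pathway, stayed between 210 and 232 CPM and between 46.0 and 57.1 CPM.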
